A study of Mus musculus with 27 samples.

Results

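The cortex of the hemisphere that was not occluded was followed over the first day after a transient stroke in mice. The 6 contralateral libraries taken 12 and 24 h after blood flow returned (late) were set against the 6 taken at 3 and 6 h (early), over all genes and without the sham animals. These 12 libraries, 3 per time, were chosen by their labels from the 27 of the series. RNA levels were read by RNA-seq, from total RNA after Ribo-Zero removal of ribosomal RNA. All animals of the 12 libraries were wild-type C57BL6 mice of 7 to 8 weeks with occlusion of the right middle cerebral artery (MCAO) for 35 min by a suture, under isoflurane, with ligation of the common carotid artery. Each surgery had to meet criteria of cerebral blood flow, and the mice recovered in cages held at a controlled temperature. Each of the 4 times is a group of its own, of 3 libraries. Ipsilateral cortex of the same times, 12 libraries, is used below in one comparison. Each replicate number stands for a separate day of surgery. The labels give neither the sex of the mice nor the clock time of tissue collection, and no sham samples matched in time were used here. Time since stroke, time since anaesthesia and surgery, and time of day therefore cannot be told apart. In whole tissue, fewer cells of a type and less RNA per cell also cannot be told apart.

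The middle cerebral artery feeds most of one side of the cortex, so the opposite cortex keeps its blood supply in this model, although it shares the anaesthesia, the surgery and the circulating hormones of the animal. Brain gene expression moves with the time of day through the core clock, in which Arntl and Clock switch on Per and Cry genes that feed back on them. It also moves with glucocorticoids from the adrenal gland, with food intake, and with neuronal activity, which switches on immediate early genes such as Fos and Arc within minutes.

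Library totals ran from 26505996 to 48162875 counts. Levels are CPM, the counts of a gene scaled to the same library total with TMM factors. Markers of cortical excitatory neurons summed to 1777 to 1846 CPM in late and 1730 to 1899 CPM in early libraries, so the labelled tissue carried its defining transcripts. Replicate 1 at 3 h stood apart, at -70.1 on the first principal component (21.7% of the variance), against -8.22 to 19.8 for the other 11. Its expression followed the GC content of the genes, by -1.05 on the log2 scale between the genes of highest and lowest GC content (outer deciles), against -0.16 to 0.293 elsewhere. On the second component (14.5%), 5 late libraries lay at 12.2 to 32.2 and the early libraries at -23.2 to -4.76, with replicate 3 at 24 h at -4.04. Mitochondrial ribosomal RNA took 29.4 ± 2.19% of the counts in late and 28.9 ± 4.42% in early libraries (SD, n = 6 each), and the difference did not pass (two-sided exact permutation test, p = 0.799).

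Few genes differed between late and early libraries, and the changes were small. Of 17291 genes tested, 81 were higher (0.468%) and 119 lower (0.688%) in late than in early libraries, 200 in all (1.16%), with an adjusted p under 0.05 in the quasi-likelihood test of edgeR. The higher genes had a median log2 fold change of 0.70 and the lower genes one of -0.66, and 16 of the higher and 19 of the lower genes reached 2-fold. Among the 200, the late and early libraries did not overlap for 49 higher and 65 lower genes. Over all tested genes, 0.804% had every late library above every early one and 0.711% the reverse. All 200 had the same sign at 12 h and at 24 h against the early libraries, and the change was larger at 12 h for 132 of them. They were called on the mean of both times, which favours equal signs, so this is no separate evidence that the times agree. Of the 200, 109 were also called at 12 h alone and 29 at 24 h alone. Against the same early libraries, 12 h alone gave 124 calls (0.717%) and 24 h alone 31 (0.179%), and these comparisons share their early samples. Most of the called genes code for proteins, 78 of the higher and 118 of the lower. The median GC content was 49.1% for the higher, 52.0% for the lower and 49.7% for all tested genes.

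**Figure D1:**
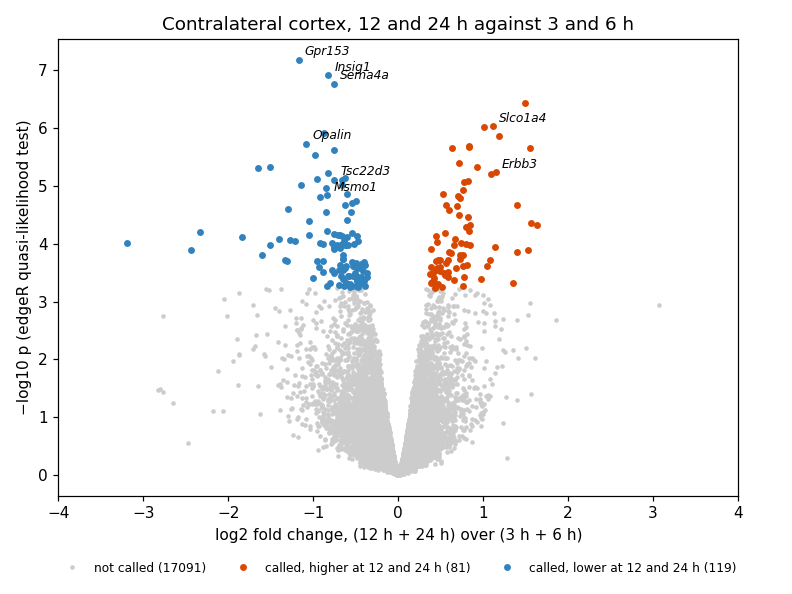
Log2 fold change of each tested gene in contralateral cortex, 12 and 24 h over 3 and 6 h, against -log10 of the unadjusted p from edgeR. Orange points are the 81 genes called higher and blue points the 119 called lower at the late times, and most lie within 1 log2 unit of no change.

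The count of calls depended on single libraries. Without replicate 1 at 3 h, the library that stood apart, it was 774 (274 higher and 500 lower), which included 198 of the 200. It was 108 without replicate 2 and 164 without replicate 3 at 3 h, and 66, 74 and 95 without replicates 1, 2 and 3 at 6 h. It was 142, 65 and 70 without replicates 1, 2 and 3 at 12 h, and 68, 79 and 220 without those at 24 h. Of the 200 genes, 50 (24 higher and 26 lower) were called in all 12 of these fits. Without replicate 2 of every time, which leaves 2 libraries per time, edgeR called 0 genes, and 1086 had an unadjusted p under 0.05. Of the genes called late against early and described below, those without a remark kept their call whichever single library was left out, and for the others the number of the 12 fits that kept it is given.

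A transporter and a secreted protein of endothelial cells were among the rises. Slco1a4, an organic anion transporter of the blood-brain barrier (GRCm38, chromosome 6, 141805440 to 141856199, minus strand), had 39.6, 46.4 and 57.8 CPM (lowest, median, highest) in late and 13.9, 21.5 and 34.1 CPM in early libraries, without overlap (2.17-fold, log2 fold change 1.12 ± 0.14, SE; adjusted p = 0.00279, edgeR). Vwf, which encodes the endothelial glycoprotein von Willebrand factor (chromosome 6, 125546774 to 125686679, plus strand), had 22.9, 30.4 and 41.7 CPM in late and 10.3, 11.9 and 22.6 CPM in early libraries. Its groups nearly touched, through replicate 3 of 6 h and of 24 h, and the rise was 2.28-fold (1.19 ± 0.16, adjusted p = 0.00294). Of 12 endothelial markers tested, Slco1a4 rose (Vwf is not on the list) and none fell, where 0.468% of all tested genes rose and 0.688% fell. The median log2 fold change of the list was -0.04, and it summed to 239 to 392 CPM in late and 263 to 365 CPM in early libraries.

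Sox2, Sox21, Erbb3 and Gpr17, known from neural progenitors and the oligodendrocyte lineage, rose as well. Sox2, a transcription factor of neural stem cells and glia (chromosome 3, 34650405 to 34652461, plus strand), had 11.5, 15.1 and 20.8 CPM in late and 6.61, 7.59 and 9.31 CPM in early libraries (2.01-fold, 1.01 ± 0.13, adjusted p = 0.00279). Its relative Sox21 had 4.45, 4.55 and 6.83 CPM in late and 1.78, 2.32 and 3.03 CPM in early libraries (2.14-fold, adjusted p = 0.00483). For both genes the late and early libraries lay apart. Erbb3, a neuregulin receptor found in the oligodendrocyte lineage, had 8.79, 13.3 and 16.3 CPM in late and 3.89, 5.83 and 7.64 CPM in early libraries (2.22-fold, adjusted p = 0.00483), also without overlap. Gpr17, a receptor of maturing oligodendrocyte precursors, averaged 43.0 CPM at 12 h and 27.6 at 24 h, against 19.9 at 3 h and 19.2 at 6 h (1.76-fold, adjusted p = 0.00519). Its late libraries, from 22.9 to 49.5 CPM, overlapped the early ones, which reached 23.1 CPM.

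Other rises included Sult1a1, a sulfotransferase of phenolic compounds, with 11.6, 13.8 and 17.0 CPM in late and 6.07, 7.73 and 9.87 CPM in early libraries (1.78-fold, adjusted p = 0.00297). Kcnv1, a silent subunit that modifies voltage-gated potassium channels, had medians of 116 CPM in late and 63.9 CPM in early libraries (1.64-fold, adjusted p = 0.0111). At low level, Rtp1, known as a helper of odorant receptor transport, rose 2.92-fold to a late median of 2.42 CPM, against 0.943 CPM early. Scn10a, a voltage-gated sodium channel gene best known from sensory neurons, rose 2.63-fold to 2.56 CPM, against 1.08 CPM early, but did not pass when the libraries were fitted as 2 pooled groups with no term for time (adjusted p = 0.0572). Lao1, an amino acid oxidase gene, rose 2.96-fold to 0.989 CPM, against 0.296 CPM early, and kept its call in 11 of the 12 fits, with an adjusted p of 0.0507 without replicate 1 at 6 h.

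**Figure D2:**
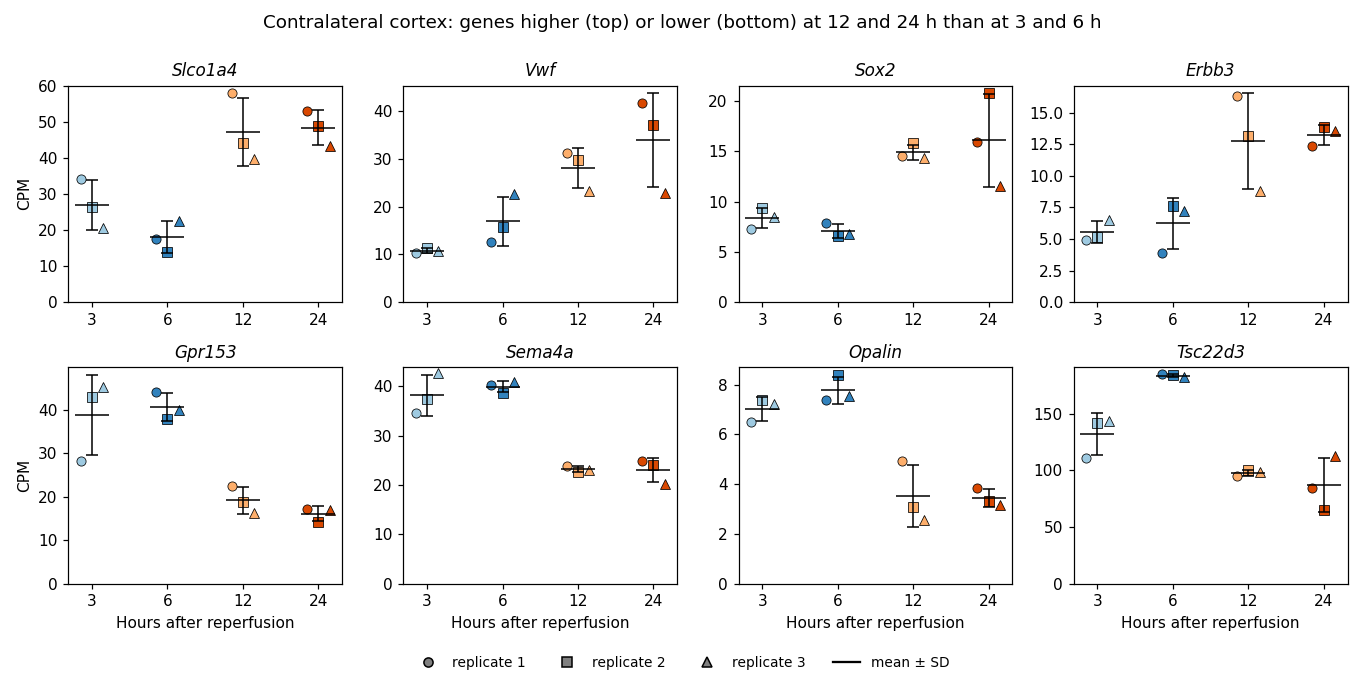
CPM in each of the 12 contralateral libraries by hours after reperfusion, 3 replicates per time, with the mean and SD, for 4 genes called higher (top row) and 4 called lower (bottom row) at 12 and 24 h. Sema4a, Opalin and Gpr153 sit at about the same lower level at 12 and 24 h, while Tsc22d3 peaks at 6 h.

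Among the lower genes, Gpr153, an orphan receptor gene (chromosome 4, 152274232 to 152285337, plus strand), had the smallest p. It had 14.2, 17.1 and 22.5 CPM in late libraries and 28.2, 41.5 and 45.3 CPM in early libraries, with no overlap, and fell by 1.17 ± 0.12 on the log2 scale (2.26-fold, adjusted p = 0.000985). Sema4a, a semaphorin of the cell surface (chromosome 3, 88435959 to 88461182, minus strand), had 20.2, 23.5 and 24.8 CPM in late and 34.5, 39.5 and 42.7 CPM in early libraries (1.69-fold lower, adjusted p = 0.000985). Opalin, a membrane protein gene of myelinating oligodendrocytes, had 2.56, 3.24 and 4.91 CPM in late and 6.48, 7.39 and 8.39 CPM in early libraries (2.12-fold lower, adjusted p = 0.00297). In each of the 3 genes the means at 3 and 6 h were close to each other, and so were those at 12 and 24 h.

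Some of the largest falls were in genes of low level. Tmem252, a transmembrane protein gene, had 1.22, 2.21 and 4.63 CPM in late and 3.75, 7.76 and 13.5 CPM in early libraries, and the groups overlapped (3.14-fold lower, adjusted p = 0.00446). Otop2, of the otopetrin proton channel family, was 2.46-fold lower and the thyrotropin-releasing hormone receptor gene Trhr2 2.20-fold lower. Lingo3, of a family of neuronal leucine-rich repeat proteins, was 1.69-fold lower, with a median of 26.7 CPM in late and 42.9 CPM in early libraries. It was the 1 gene to pass among 18 activity-regulated secreted and synaptic genes, against 1.16% of all tested genes.

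The list with the most called genes was cholesterol synthesis. Sterol synthesis is switched on by the transcription factor SREBP2, which is held in the endoplasmic reticulum with the help of INSIG1 when sterols are plentiful, and SREBP2 works together with the factor NF-Y, which binds CCAAT boxes. Of 17 genes of this list tested, 8 fell and none rose, against 0.688% lower and 0.468% higher over all tested genes. All 17 had a negative log2 fold change, with a median of -0.47 against 0.00 (-0.0037) over all tested genes. The 17 together summed to 749.3 to 890.1 CPM in late libraries and 995.9 to 1255 CPM in early libraries, with no overlap. The log2 median was -0.35 at 12 h and -0.54 at 24 h, each against the shared early libraries.

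The promoters of the list are shown for 3 genes that kept their call in all 12 fits, Insig1, Msmo1 and Mvd, and for Idi1, with every CCAAT in either orientation in capitals. The sequences are from RefSeq, build GRCm38.p6, in the direction of transcription, from 250 bases before to 50 after the start. The windows are chr5:28071162-28071461 on the plus strand for Insig1, chr8:64733529-64733828 on the minus strand for Msmo1, chr8:122443373-122443672 on the minus strand for Mvd and chr13:8885356-8885655 on the plus strand for Idi1.
Insig1: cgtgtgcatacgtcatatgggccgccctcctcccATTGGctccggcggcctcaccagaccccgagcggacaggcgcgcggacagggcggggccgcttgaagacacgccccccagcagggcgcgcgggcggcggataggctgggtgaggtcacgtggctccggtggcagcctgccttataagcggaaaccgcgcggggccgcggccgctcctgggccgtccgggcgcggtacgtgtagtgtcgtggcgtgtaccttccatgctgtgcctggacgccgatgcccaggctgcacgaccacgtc
Msmo1: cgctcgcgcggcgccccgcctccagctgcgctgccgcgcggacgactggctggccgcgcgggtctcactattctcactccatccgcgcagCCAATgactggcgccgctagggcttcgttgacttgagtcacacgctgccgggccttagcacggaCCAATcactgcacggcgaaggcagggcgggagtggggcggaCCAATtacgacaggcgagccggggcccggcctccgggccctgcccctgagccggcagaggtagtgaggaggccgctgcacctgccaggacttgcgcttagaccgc
Mvd: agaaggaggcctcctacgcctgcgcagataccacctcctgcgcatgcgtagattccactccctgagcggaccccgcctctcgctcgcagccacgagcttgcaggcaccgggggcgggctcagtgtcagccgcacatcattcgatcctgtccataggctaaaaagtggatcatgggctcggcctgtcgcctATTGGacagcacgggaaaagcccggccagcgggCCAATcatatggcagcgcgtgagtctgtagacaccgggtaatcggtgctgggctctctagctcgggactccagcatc
Idi1: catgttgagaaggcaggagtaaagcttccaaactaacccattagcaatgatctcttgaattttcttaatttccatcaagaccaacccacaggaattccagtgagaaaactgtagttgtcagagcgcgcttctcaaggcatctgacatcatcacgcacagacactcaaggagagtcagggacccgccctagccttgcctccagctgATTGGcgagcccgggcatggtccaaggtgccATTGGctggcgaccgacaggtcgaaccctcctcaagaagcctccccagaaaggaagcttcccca

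Of the 17 genes, 10 have a window in the table, and all 10 hold CCAAT on at least 1 strand, including the 7 called genes among them. CCAAT is found in 37.4% of all 32851 windows of 300 bases and in at least 1 window of 41.9% of the 11930 tested genes that have one. The sterol element TCACNCCAC, searched on both strands, was in 1.24% of all windows and in those of 1.4% of these tested genes. It was in those of 0 of the 10 genes. The letters CACGTG, which read the same on both strands, were in 7.15% of all windows and in those of 11% of these tested genes. Of the list, 3 of the 10 genes hold them, and 2 of the 7 called ones. A match of letters is no proof of binding, and these motifs were searched after the values were seen.

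Insig1 (chromosome 5, 28071363 to 28078662, plus strand) had 46.8, 54.2 and 58.1 CPM in late libraries and 87.3, 91.3 and 114 CPM in early libraries, without overlap (1.77-fold lower, -0.83 ± 0.09, adjusted p = 0.000985). Msmo1, a methylsterol oxidase (chromosome 8, 64718139 to 64733792, minus strand), had 44.4, 53.7 and 61.8 CPM in late and 78.8, 86.3 and 145 CPM in early libraries (1.79-fold lower, adjusted p = 0.00713), and the 145 CPM was replicate 1 at 3 h. Mvd, which makes isopentenyl diphosphate (chromosome 8, 122433601 to 122443422, minus strand), had 5.75, 6.69 and 8.01 CPM in late and 7.91, 13.1 and 16.6 CPM in early libraries (1.90-fold lower, adjusted p = 0.00741). Here the lowest early value was replicate 1 at 3 h, so that library was highest of all for Msmo1 and lowest of the early ones for Mvd.

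Other called members were less stable. Idi1, the isomerase after Mvd in the pathway, averaged 6.36 and 5.49 CPM at 12 and 24 h, against 11.1 and 7.60 at 3 and 6 h (5 of 12 fits). Dhcr7, the last reductase of the pathway, averaged 14.6 and 14.3 CPM at 12 and 24 h, against 27 and 19.7 at 3 and 6 h (2 of 12). Cyp51 fell by 0.47 on the log2 scale (6 of 12) and Nsdhl by 0.39 (2 of 12, and adjusted p = 0.0552 with a replicate block).

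**Figure D3:**
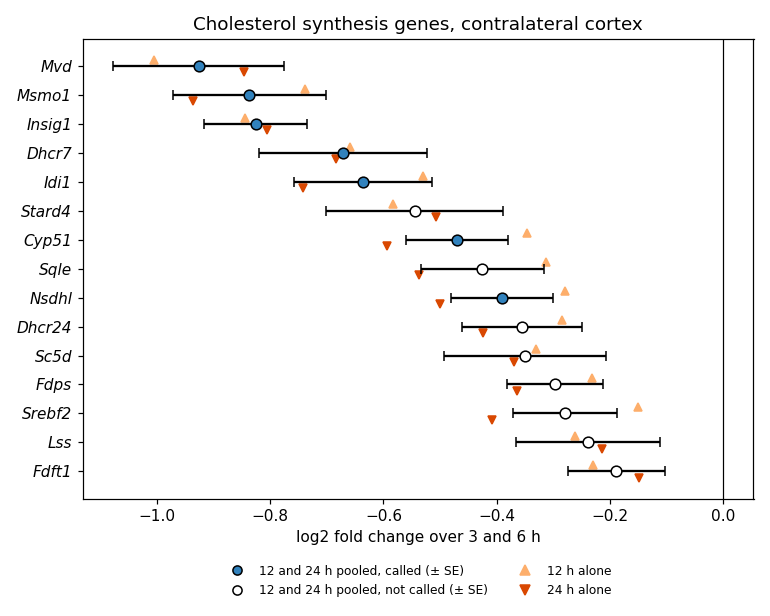
Log2 fold change of 15 of the 17 tested cholesterol synthesis genes in contralateral cortex over the early libraries (3 and 6 h), for 12 and 24 h pooled with its SE (circles, filled where called) and for each late time alone (triangles). All 15 lie left of 0 at both late times.

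The number of called members was 13 without replicate 1 at 3 h, 9 and 6 without replicates 2 and 3 at 3 h, and 3, 5 and 4 without replicates 1, 2 and 3 at 6 h. It was 4, 3 and 3 without replicates 1, 2 and 3 at 12 h, and 3, 4 and 8 without those at 24 h. All 17 signs were negative in each of these fits, and also without replicate 2 of every time, where none was called. DESeq2 called 13 and the edgeR fit with an offset for GC content 12, all lower. Fewer were called with single times, 2 with 12 h and 3 with 24 h as the only late time. With 3 h as the only early time 6 were called, with 6 h 2, and with 2 pooled groups 7.

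Of 24 glucocorticoid-responsive genes tested, 4 fell and 1, Sult1a1, rose, against 0.688% lower and 0.468% higher over all tested genes. The list had 19 negative signs and a median log2 fold change of -0.24. The median was -0.43 at 12 h and -0.12 at 24 h against the early libraries. With 3 h as the only early time the median was -0.03, with 14 negative signs and 1 fall, and with 6 h as the only early time it was -0.41 (-0.415), with 20 negative signs and 1 fall. Tsc22d3, which encodes the glucocorticoid-induced leucine zipper, had 65.1, 97.1 and 112 CPM in late and 111, 163 and 185 CPM in early libraries (1.68-fold lower, -0.75 ± 0.12, adjusted p = 0.00519). It averaged 132, 184, 98.1 and 87.2 CPM at 3, 6, 12 and 24 h, and the lowest early value, again replicate 1 at 3 h, lay just under the highest late one. Pdk4, the kinase that turns off pyruvate dehydrogenase, had 3.45, 4.55 and 6.58 CPM in late and 6.81, 8.39 and 10.2 CPM in early libraries (1.81-fold lower, adjusted p = 0.0103). Ddit4, an inhibitor of mTOR signalling, averaged 10.6 CPM at 12 h and 15.7 at 24 h, against 20.8 at 3 h and 23.7 at 6 h (adjusted p = 0.0198, 6 of 12 fits). Errfi1, an inhibitor of EGF receptor signalling, fell by 0.45 on the log2 scale (adjusted p = 0.0328, 3 of 12 fits). Fkbp5, the classic glucocorticoid target, did not pass (-0.28 ± 0.19, adjusted p = 0.635), with 46.0, 78.6, 44.6 and 55.2 CPM at 3, 6, 12 and 24 h, and neither did Sgk1 (-0.31 ± 0.12, adjusted p = 0.28). Without replicate 3 at 24 h, 9 members were called lower, and without either replicate 1 or 2 at 24 h, 2 were.

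Of 12 genes of fasting and ketone metabolism, 3 fell, Pdk4, Txnip and Ucp2, where 0.688% of all tested genes fell. Txnip, which binds thioredoxin and limits glucose uptake, had 10.5, 11.2 and 19.2 CPM in late and 22.4, 26.0 and 33.3 CPM in early libraries, without overlap (1.96-fold lower, adjusted p = 0.00339). Ucp2, a mitochondrial carrier, fell by 0.63 on the log2 scale and kept its call in 2 of 12 fits. The list had 10 negative signs and a median of -0.07.

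Of 16 p53 target and growth arrest genes, 3 fell and none rose. Over all tested genes 0.688% fell and 0.468% rose, the base for this list and those that follow. Trp53inp1, a p53-induced stress protein gene, had 12.6, 16.9 and 28.4 CPM in late and 24.8, 36.6 and 49.3 CPM in early libraries (2.07-fold lower, adjusted p = 0.0134). Gadd45g, a growth arrest gene, fell by 0.89 (4 of 12 fits) and Pmaip1, which encodes the apoptosis inducer NOXA, by 0.94 on the log2 scale (2 of 12). Ndrg1, a stress-responsive gene of the hypoxia and glycolysis list, had 17.5, 23.0 and 25.7 CPM in late and 31.4, 34.2 and 40.9 CPM in early libraries (1.55-fold lower, adjusted p = 0.00519). It was the 1 gene to pass of 16 tested on that list. Of 17 integrated stress response genes 2 fell, Ddit4 and Slc7a5 (Slc7a5 in 3 of 12 fits), and 14 signs were negative (median -0.11). Of 27 voltage-gated potassium and sodium channel genes, Kcnv1 rose and Kcnd1 fell (by 0.50, 2 of 12 fits).

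Of 20 clock and clock output genes, 2 rose and none fell, with 10 positive and 10 negative signs, where 0.468% of all tested genes rose. Arntl, which encodes the activator BMAL1, had 24.6, 30.9 and 34.5 CPM in late and 20.6, 22.3 and 25.3 CPM in early libraries (1.33-fold, adjusted p = 0.0365, 4 of 12 fits). Cry1, a repressor of that activator, had 19.1, 20.7 and 30.7 CPM in late and 13, 14.6 and 18.7 CPM in early libraries (1.51-fold, adjusted p = 0.0359, 4 of 12 fits). Per2 averaged 40.5 CPM at 12 h and 39.2 at 24 h, against 24.1 at 3 h and 34.5 at 6 h, and missed the threshold (0.47 ± 0.12, adjusted p = 0.0656), but passed with replicate number as a block (adjusted p = 0.0456). Per1 (-0.12 ± 0.10, adjusted p = 0.715), Dbp (-0.34 ± 0.12, adjusted p = 0.248) and Nr1d1 (-0.31 ± 0.10, adjusted p = 0.178) did not pass. Nr1d1, the repressor REV-ERB alpha, had 52.2, 48.2, 34.8 and 47.3 CPM at 3, 6, 12 and 24 h, with 12 h the lowest. Rbm3, an RNA-binding protein gene induced by cooling, averaged 49.6 CPM at 12 h and 55.8 at 24 h, against 35.3 at 3 h and 41.0 at 6 h (1.38-fold, adjusted p = 0.0291, 3 of 12 fits).

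Lists of damage and inflammation gave few or no calls. None of 17 inducible chaperones, 12 cytokine and chemokine genes, 23 interferon-stimulated genes, 18 endoplasmic reticulum chaperones, 16 oxidative stress genes or 16 cell cycle genes passed. Hspa1a, the inducible HSP70, averaged 3.19 and 3.57 CPM at 12 and 24 h, against 3.27 and 3.78 CPM at 3 and 6 h, and its reads cannot be split with certainty from its near-identical neighbour Hspa1b. Of 18 reactive astrocyte genes 1 rose, Serpina3n, a secreted protease inhibitor (1.35-fold, adjusted p = 0.0497, 1 of 12 fits). Gfap averaged 65.1, 92.8, 111 and 81.5 CPM at 3, 6, 12 and 24 h and did not pass (0.29 ± 0.14, adjusted p = 0.428). None of 15 genes of glutamate uptake and metabolism passed, among them the transporters Slc1a2 (-0.19 ± 0.10, adjusted p = 0.518) and Slc1a3 (-0.05 ± 0.10, adjusted p = 0.909) and the synthetase Glul (0.11 ± 0.09, adjusted p = 0.675).

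Marker lists of cell types gave at most 2 calls each, where 0.468% of all tested genes rose and 0.688% fell. Of 10 oligodendrocyte precursor markers 1, Gpr17, rose, and that list summed to 263 to 444 CPM in late and 295 to 395 CPM in early libraries. None of 13 excitatory neuron, 14 interneuron, 12 astrocyte, 12 mural and fibroblast, 8 choroid plexus, 10 striatal or 3 lymphocyte markers passed. Of 14 myelin markers, Opalin and Mog fell (Mog by 0.51 on the log2 scale, 3 of 12 fits), and the list summed to 968 to 1667 CPM in late and 1292 to 1572 CPM in early libraries. Of 9 blood markers, the haemoglobin genes Hbb-bt (1.69-fold, 9 of 12 fits) and Hba-a2 (1.63-fold, 3 of 12) fell, and their reads can be shared with other globin copies. That list summed to 46.0 to 68.4 CPM in late and 59.5 to 86.3 CPM in early libraries. Of 15 microglia markers 1, Sall1, rose (1.47-fold, 3 of 12 fits), and of 10 hippocampal and thalamic markers 1, Rgs16, fell (1.48-fold, 2 of 12, adjusted p = 0.0552 with a replicate block). Summed within each library, the 8 choroid plexus markers ranged from 4.58 to 187 CPM in late and from 4.57 to 409 CPM in early libraries. The sums of the 10 striatal markers ranged from 177 to 498 and from 176 to 526 CPM. Their part in the results above was not tested. The 13 mitochondrially encoded messengers all had negative signs and none passed; they summed to 7062 to 8898 CPM in late and 7002 to 17780 CPM in early libraries, the highest being replicate 1 at 3 h. Without that library 8 of the 13 mitochondrially encoded transcripts were negative, with a median of -0.02 in place of -0.38.

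The 24 h libraries were set against the 12 h libraries to ask whether the late times differ from each other. No gene passed in edgeR (0% of 17291), 457 (2.64%) had an unadjusted p under 0.05, and DESeq2 called 12, of which 11 were higher at 24 h. With replicate number as a block, which takes out the surgery day, 4 genes were called, all higher at 24 h and all immediate early genes. Without replicate 1 at 3 h, 4 were called, among them Csrnp1, Hes1 and Pim3, again all higher at 24 h.

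Fos, whose product forms the AP-1 transcription factor with JUN (chromosome 12, 85473890 to 85477273, plus strand), had 24.2, 34.2 and 10.7 CPM in replicates 1, 2 and 3 at 24 h, against 6.02, 7.73 and 2.12 CPM at 12 h. Within each replicate number it was higher at 24 h. The log2 difference was 2.12 ± 0.50 (adjusted p = 1 without the block, 0.010 with it). Arc, a synaptic activity gene, had 135, 167 and 96.9 CPM at 24 h, against 46.1, 58.5 and 33.8 CPM at 12 h (adjusted p = 0.59 without the block, 0.0362 with it). Nr4a1, a nuclear receptor gene, had 38.6, 46.9 and 26.2 CPM at 24 h, against 18, 18.2 and 10.4 CPM at 12 h, and Dusp1, a phosphatase of MAP kinases, had 27.9, 35.4 and 19.9 CPM, against 13.5, 12.3 and 8.93 CPM. With the block their adjusted p was 0.00228 each, and without it 0.317 for Nr4a1 and 0.0892 for Dusp1. In all 4 genes replicate 2 was the highest and replicate 3 the lowest library at 24 h, and replicate 3 was the lowest at 12 h.

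All 22 tested immediate early genes had a positive log2 difference between 24 h and 12 h, with a median of 0.82 (0.825), and 14 of them had an unadjusted p under 0.05 in that direction, against 1.61% of all tested genes. Of the 24 glucocorticoid-responsive genes, 16 were positive and 8 had an unadjusted p under 0.05 upward (median 0.27). In the other direction, 0 of 15 microglia markers were positive between 24 h and 12 h, with a median of -0.35, and 6 had an unadjusted p under 0.05 downward. Of all 17291 tested genes, 8758 were positive and 179 had an unadjusted p under 0.05 downward. The means were lowest at 12 h for Fos, Arc, Nr4a1, Dusp1 and Junb. Pooled late against early, the list gave 1 rise, Egr1, and 1 fall, Ier3, with a median log2 fold change of 0.11, while the median was -0.33 at 12 h and 0.43 at 24 h, each against the shared early libraries. Egr1, an activity-dependent zinc finger factor, averaged 39.0, 29.8, 45.6 and 69.6 CPM at 3, 6, 12 and 24 h (1.66-fold late over early, adjusted p = 0.0291, 3 of 12 fits), and did not pass with 2 pooled groups (adjusted p = 0.0723) or a GC offset (adjusted p = 0.101). Ier3 fell by 0.55 on the log2 scale (3 of 12 fits, and adjusted p = 0.0546 with the block and 0.0766 with 2 pooled groups). Lower at 24 h than at 12 h, as values that did not pass, were Myoc, with 6.81 CPM against 14.5, and Kcnj2, a potassium channel gene, with 30.3 CPM against 47.0.

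**Figure D4:**
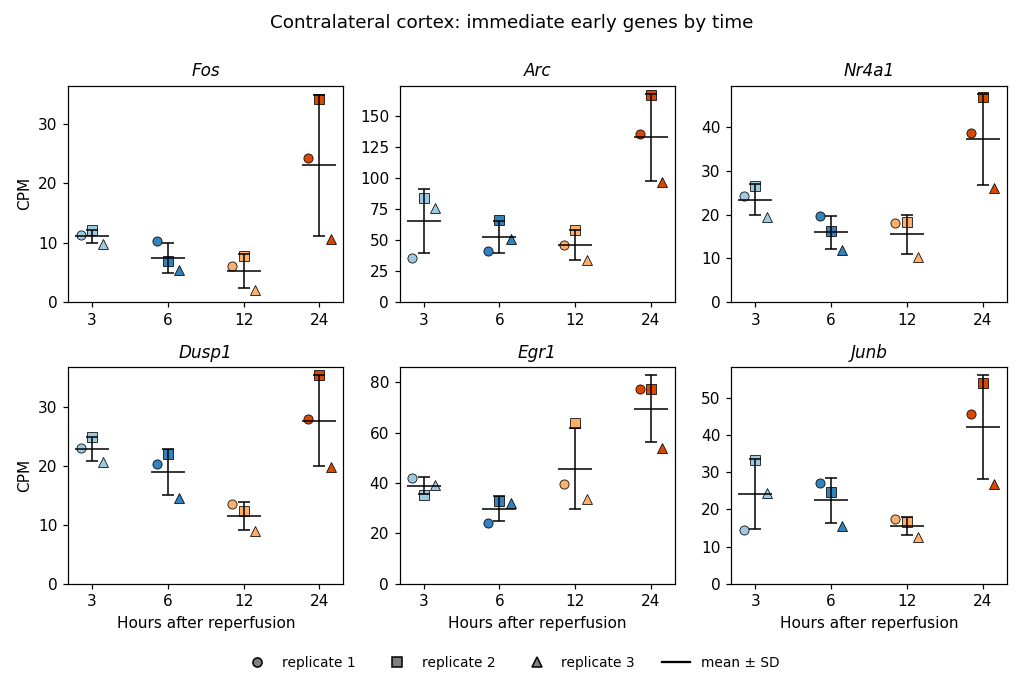
CPM of 6 immediate early genes in each contralateral library by hours after reperfusion, with the mean and SD of the 3 replicates per time. Except for Egr1, the 12 h mean is the lowest of the 4 and the 24 h mean the highest, and symbols show that replicate 3 (triangles) is the lowest library at 24 h.

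The 6 h libraries were set against the 3 h libraries in the same way. No gene passed in edgeR (0% of 17291), 1149 had an unadjusted p under 0.05, DESeq2 called 14, of which 7 were higher at 6 h, and without replicate 1 at 3 h 1 gene passed. The smallest p values, none of them a call, belonged to Tekt4, a tektin of cilia, with 3.70 ± 0.35 CPM at 6 h and 1.05 ± 0.42 at 3 h (SD, n = 3 each), and to Megf6, with 6.53 ± 0.85 and 2.84 ± 0.41 CPM. Angptl4, an inhibitor of lipoprotein lipase, averaged 8.02 CPM at 6 h and 3.73 at 3 h. Lower at 6 h were Nr6a1, an orphan nuclear receptor gene, with 8.09 and 12.8 CPM, Ak4, a mitochondrial adenylate kinase gene, with 23.0 and 38.7 CPM, and the astrocyte factor Sox9, with 6.90 and 11.4 CPM. The median log2 difference of 6 h over 3 h was 2.42 for the 8 choroid plexus markers and 0.62 for the 10 striatal markers. Over all tested genes it was 0.00548. The part of such tissue in this contrast was not tested.

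The change from early to late was then set against that in ipsilateral cortex, to ask where the course of the unoccluded side differs. All values of this comparison are from 1 fit of 24 libraries. Whether the hemispheres came from the same animals is not given in the labels. The difference between the hemispheres passed for 290 of 18062 genes (1.61%), of which 149 had the more positive change in contralateral cortex, and for 482 with a replicate block. Without 1 library this count was 550 (contralateral 3 h replicate 1) and 459 (contralateral 24 h replicate 3) at the high end. It was 156 to 191 without replicate 1 or 3 at 6 h, 2 or 3 at 12 h or 1 or 2 at 24 h in contralateral cortex, or without replicate 3 at 3 h, 1 at 6 h or 1 at 12 h in ipsilateral cortex. Of the 200 genes called in contralateral cortex, 39 differed between the hemispheres. In 18 of these the rise and in 20 the fall was on the contralateral side, with a weaker or opposite change on the ipsilateral one. The exception was Serpina3n, which rose by 0.43 contralaterally and by 2.17 ipsilaterally on the log2 scale (adjusted p of the difference 0.0381). The 39 come from genes called for their contralateral change, which is itself part of the difference tested. That choice favours a larger contralateral change, so the counts of 18 and 20 are no separate evidence for it. In ipsilateral cortex 2263 genes (12.5%) were called late against early. The calls shared with the same sign were 63, or 31.5% of the contralateral and 2.78% of the ipsilateral list, and 10 had opposite signs.

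Sox2 and Sox21 belonged to the genes that differed, with log2 changes of 1.00 and 1.09 contralaterally, against 0.14 and 0.04 ipsilaterally (adjusted p of the difference 0.0347 and 0.0202). So did Sema4a (-0.76 against -0.22, adjusted p = 0.0202), Sh2d4b, an SH2 domain protein gene (-0.89 against 0.23, adjusted p = 0.0155), Trhr2 (-1.15 against -0.29, adjusted p = 0.0485) and Kcnv1 (0.70 against -0.22, adjusted p = 0.0058). Aldh1l2, a mitochondrial folate enzyme gene, averaged 4.57 ± 0.50 CPM late and 6.89 ± 1.20 early contralaterally, and 11.3 ± 1.53 late and 7.55 ± 1.66 early ipsilaterally (SD, n = 6 each; adjusted p of the difference 0.000844, edgeR), and kept its contralateral call in 3 of 12 fits. Slc7a5, the large neutral amino acid transporter, likewise fell contralaterally (-0.49, 3 of 12 fits) and had a change of 0.32 ipsilaterally that did not pass (adjusted p of the difference 0.0116).

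Egr1 averaged 58.8 ± 19.0 CPM late and 35.3 ± 6.62 early in contralateral cortex, and 67.7 ± 22.1 late and 135 ± 32.4 early in ipsilateral cortex (SD, n = 6 each; adjusted p of the difference 0.00221, edgeR). The hemispheres were closer in level at the late than at the early times. The genes with the smallest p for a more positive contralateral change also included Ankrd34c (0.92 against -0.44), Gm13716 (0.50 against -0.78), the metalloprotease gene Adamts15 (0.47 against -0.87) and the beta-1 adrenergic receptor gene Adrb1 (0.44 against -0.55). Of these 5 genes, Egr1 and Ankrd34c were themselves called in contralateral cortex. For the more negative change they were Adcy7, an adenylyl cyclase gene (-0.20 against 1.16, adjusted p = 3.97e-05), the mechanosensitive channel gene Piezo1 (-0.27 against 1.02), Wisp1, a matricellular protein gene (-0.67 against 0.99), and Loxhd1 (-1.86 against 1.49, contralateral call kept in 5 of 12 fits), besides Aldh1l2. In Adcy7, Piezo1 and Wisp1 the contralateral change itself did not pass.

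For Insig1, Msmo1, Slco1a4 and Vwf the difference between the hemispheres did not pass. The log2 change of Insig1 was -0.83 contralaterally and -0.52 ipsilaterally, with a difference of -0.31 (adjusted p = 0.275). For Msmo1 the changes were -0.85 and -0.46 (adjusted p = 0.291), for Slco1a4 1.11 and 0.89 (adjusted p = 0.595), and for Vwf 1.18 and 1.17 (adjusted p = 0.985).

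**Figure D5:**
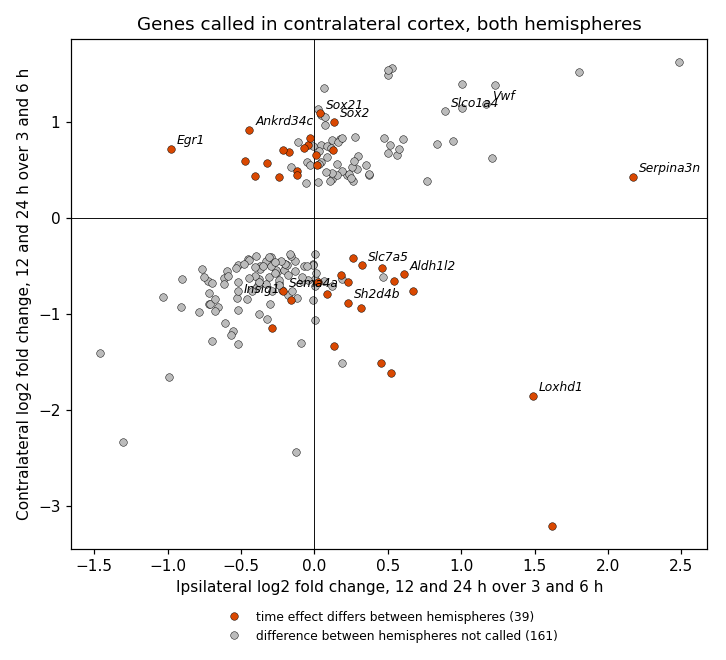
Log2 fold change of 12 and 24 h over 3 and 6 h in contralateral cortex (vertical) and in ipsilateral cortex (horizontal) for the 200 genes called in contralateral cortex, from the fit of 24 libraries. The 39 orange genes have a time effect that differs between the hemispheres; Egr1 and Loxhd1 have opposite signs and Serpina3n has the larger rise ipsilaterally.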

How the data were processed

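The authors deposited raw counts per gene in 1 table of 22340 rows and 27 libraries. The tools, per the submitters' processing notes, were STAR 2.5.0a, featureCounts 1.4.3-p1 and edgeR (no version), and the build was mm10. Which annotation and strand setting went into the counting is not given in the sources used here, so overlapping antisense genes cannot be told apart.

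Genes were kept with filterByExpr (minimum count 10, minimum total 15), which removed 5049 rows with 0.0182% of the contralateral counts. The 12 contralateral libraries were normalized by TMM and fitted with 1 mean per time in the robust quasi-likelihood model of edgeR 4.0.16 under R 4.3.3. Library totals of 26505996 to 48162875 counts gave a common biological coefficient of variation of 0.181, with 8 residual degrees of freedom. P-values were adjusted by Benjamini-Hochberg over all tested genes, threshold 0.05. The contrast between hemispheres used 24 libraries. The labels say that replicates come from separate surgery days, so p-values measure the spread between days. The script was tested on simulated data with known changes. Gene positions are from GENCODE M21, where 21468 symbols matched directly and 696 through an older symbol.

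Replicate numbers mark surgery days, per the series' design text, so the numbers pair libraries. After removal of group means, same-numbered libraries of distinct times had a mean correlation of 0.0648 over 18 pairs, and others -0.0322 over 36 pairs. The model without a block is the main one.

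The members and the 34 gene lists were chosen with earlier results of these data known. Named genes were, among called genes whose higher group averaged 1 CPM or more, the 12 largest rises and falls and the 5 smallest p in each direction. To these come the 5 smallest p per direction of the other contrasts, up to 4 members of each list, and 13 followed genes (Per1, Per2, Dbp, Nr1d1, Arntl, Fkbp5, Sgk1, Fos, Gfap, Hspa1a, Slc1a2, Slc1a3, Glul). Some are left out for brevity, and a few genes are not reported here. Further members of the cholesterol, glucocorticoid and immediate early lists, and the genes called only with a block or without 1 library, were named after their values were seen. Alternatives were other scalings and filters, DESeq2 1.42.0, a replicate block, an offset for GC content, single times, pooled groups, all 27 libraries, and libraries left out. Counts per gene list under these alternatives were added after the data were seen.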

Additional observations from a re-analysis of the deposited data

Results flagged for a closer look

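Checked were 114 groups of 6 libraries, the late and early groups of 56 genes and of the share of mitochondrial ribosomal RNA. Of these groups, 10 held a library set apart from the rest (by Dixon's ratio for 6 values), and chance gives about 1 in 20. Replicate 1 at 3 h was the lone library for Ddit4 (13.5 CPM, next 22.4), Insig1 (114 CPM, next 94.7) and Msmo1 (145 CPM, next 92.9). Replicate 3 at 24 h was the lone late library for Otop2 (1.5 CPM, next 0.872), Pmaip1 (3.97 CPM, next 2.29), Tmem252 (4.63 CPM, next 2.45) and Ucp2 (17.7 CPM, next 10.8). Replicate 1 at 12 h was the lone library for Mog (19.4 CPM, next 15.1) and Slc7a5 (52.6 CPM, next 43.4), and replicate 3 at 3 h for Plau (3.07 CPM, next 1.81), which rose late against early and kept that call in 4 of the 12 fits that leave out 1 library.

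The change from early to late differed between contralateral and ipsilateral cortex for 11 of these 56 called genes, tested on the difference itself with edgeR. The 56 were picked from genes called for their contralateral change, which is part of that difference, so the choice favours a larger contralateral change. The contralateral minus the ipsilateral log2 change was 1.7 for Egr1 (adjusted p = 0.00221), 0.92 for Kcnv1 (0.0058), 0.865 for Sox2 (0.0347) and 1.05 for Sox21 (0.0202). It was -1.47 for Gm22 (0.0367; contralateral call kept in 4 of 12 fits), -1.26 for Pmaip1 (0.0159), -0.548 for Sema4a (0.0202) and -1.74 for Serpina3n (0.0381). It was -1.11 for Sh2d4b (0.0155), -0.816 for Slc7a5 (0.0116) and -0.86 for Trhr2 (0.0485).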

How the results depend on the processing

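Late against early, 200 calls in edgeR, gave 124 with 12 h and 31 with 24 h as the late time, 95 with 3 h and 52 with 6 h as the early time, 489 with a GC offset, 649 with GC offset and replicate block, 364 with all 27 libraries and 509 with DESeq2. The replicate block alone gave 229, of which 183 were among the 200, and of the named genes Ier3, Nsdhl and Rgs16 lost their call under it, Per2 (adjusted p = 0.0456), Aqp4 (0.0226) and Nfkbia (0.0447) gained one, and no other named call changed. Fitted as 2 pooled groups of 6, the count was 171, with 154 of the 200. Of the genes named by the rule, Egr1, Gm22, Ier3, Rgs16, Sall1, Scn10a, Scx, Serpina3n and Ucp2 lost their call. Outside the rule, Errfi1 lost its call too, and the cholesterol list had 7 called members, against 8 in the main fit. Scx, a fall not described above, kept its main call in 1 of the 12 fits that leave out 1 library. Leaving out 1 library gave 65 to 774 calls, and leaving out replicate 1, 2 or 3 of every time gave 418, 0 and 32. For 24 h against 12 h the replicate block gave 4 calls, DESeq2 12, 1 library left out 0 to 4, and replicate 1 of every time left out 1. For 6 h against 3 h the replicate block gave 0, DESeq2 14, 1 library left out 0 to 1, and replicate 1 of every time left out 1. The difference between hemispheres, 290 calls, gave 482 with the block, 741 with DESeq2, 156 to 550 with 1 library left out, and 85, 2 and 66 without replicates 1, 2 and 3 of every group. The difference in mitochondrial ribosomal RNA, 0.533 percentage points, ranged from -0.361 to 2.09 with 1 library left out. It turned round without replicate 2 (-0.0703) or 3 (-0.361) at 3 h, without replicate 1 at 12 h (-0.241), and without replicate 3 of every time (-0.33). None of the named called genes changed sign under these settings. Of 66 named calls, 38 were kept in every fit that left out 1 library. These 66 hold 56 calls late against early, with 12 such fits each. The rest are calls of the difference between hemispheres, with 24 such fits each. All calls of that second kind were kept, so the share kept late against early is lower. Permuting libraries within replicate numbers, the replicate block for the share of mitochondrial ribosomal RNA, gave p = 0.731 in a permutation test. The cause of these shifts was not tested. Leaving out Rn45s was planned and not run. At this depth and with 3 libraries per time, no change under 0.37 on the log2 scale was called.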
